A study of Homo sapiens with 6 samples.

Results

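The PAI-1 peaks of chromosome 4 comprised 16900 of the 380031 peaks (4.45%) in the 4 peak lists of a chromatin immunoprecipitation sequencing (ChIP-seq) experiment on human bladder cancer cells. A peak is an interval in which a peak caller found more sequenced fragments than its background model allows. A peak belonged to the set when its list placed it on chromosome 4, and lines of 1 list with the same start and end were counted once, with their highest score. The first and second replicates contributed 3774 and 2233 peaks for RT112, and 5298 and 5595 for UM-UC-3; paired values below keep this order of replicates. Chromosome 4 was selected on the density of its peaks in these same lists, so densities are given as a description, without a test.

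RT112 and UM-UC-3 are established bladder cancer cell lines, each a single line, and no treatment is given for either. Nuclear extracts of both were precipitated with an antibody against PAI-1, with 2 libraries per cell line that the labels call biological replicates. Neither the labels nor the methods say how far these replicates were separate cultures, so the spread between them may be partly technical. The 2 input libraries were not analysed here. The comparison of the lines asks where on the chromosome PAI-1 peaks lie in each of them.

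PAI-1 is a secreted inhibitor of the urokinase-type and tissue-type plasminogen activators. It is a serpin and is not known as a classical transcription factor, and the study examined a pool of the protein in the nucleus. A ChIP peak records DNA recovered with an antibody, either because the protein is attached to it directly or through partners, or because that DNA is recovered by the procedure for other reasons. Tumor cell lines often carry gains and losses of whole chromosome arms. Chromosome 4 has a short arm, 4p, which ends in the gene-dense band 4p16 with the receptor tyrosine kinase gene FGFR3, and a long, AT-rich and gene-poor arm, 4q. FGFR3 is often mutated in bladder cancer and is joined to its neighbour TACC3 in some tumors and in RT112.

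The sequences below show the DNA of a pair of the peaks that ranked highest. They were read from GRCh37, the assembly behind hg19, on the plus strand, with at most 300 bases of each peak. The 4p16 locus came second by mean score rank among the loci found in all 4 libraries, and its capitals mark copies of GGATGG or GATGGA, the letters of a short tandem repeat at its start. The RT112 4p peak ranked second in RT112, and 235 of its 295 bases (79.7%) were C or T; the capitals mark runs of at least 8 of these.
4p16 locus, chr4:1500325-1500594: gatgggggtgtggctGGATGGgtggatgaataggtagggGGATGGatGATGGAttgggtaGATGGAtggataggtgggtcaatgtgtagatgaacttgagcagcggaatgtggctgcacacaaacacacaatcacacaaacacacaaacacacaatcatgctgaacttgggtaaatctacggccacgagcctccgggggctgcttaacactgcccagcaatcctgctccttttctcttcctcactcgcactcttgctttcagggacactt
RT112 4p peak, chr4:14031046-14031340: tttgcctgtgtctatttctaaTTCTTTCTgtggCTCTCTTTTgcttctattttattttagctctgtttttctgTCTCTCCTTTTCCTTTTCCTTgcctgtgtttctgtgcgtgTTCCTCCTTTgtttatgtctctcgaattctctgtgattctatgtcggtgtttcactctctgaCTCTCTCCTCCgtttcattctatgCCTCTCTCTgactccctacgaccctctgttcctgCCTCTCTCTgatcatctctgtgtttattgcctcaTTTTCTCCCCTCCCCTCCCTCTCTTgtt

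Chromosome 4 carried the lowest density of PAI-1 peaks of the 22 autosomes in each of the 4 libraries. Density was counted as peaks per Mb of sequenced (not N) bases and divided by the density of all autosomes in the same library, so that 1 is the autosomal mean of that library. The 2 libraries of RT112 had a relative density of 0.596 and 0.565, and those of UM-UC-3 had 0.728 and 0.737. Both UM-UC-3 libraries lay above both RT112 libraries. The means came to 0.581 ± 0.022 for RT112 and 0.733 ± 0.0064 in UM-UC-3 (SD, n = 2 each), and their difference of 0.152 was larger than either SD.

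The low density of RT112 was a feature of its long arm. On 4p the RT112 libraries, at 0.965 and 0.954, were close to the autosomal mean, and the UM-UC-3 libraries were lower, at 0.716 and 0.704. On 4q it was 0.465 and 0.426 in RT112, against 0.732 and 0.749 in UM-UC-3. In UM-UC-3 the arms thus had like densities, whereas in RT112 4p had more than 4q by a factor of 2.07 in replicate 1 and 2.24 in replicate 2. Between the cell lines the order was opposite on the arms, with RT112 higher by 0.250 on 4p and UM-UC-3 higher by 0.295 on 4q. All replicate SDs on the arms were between 0.0073 and 0.028.

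**Figure D1:**
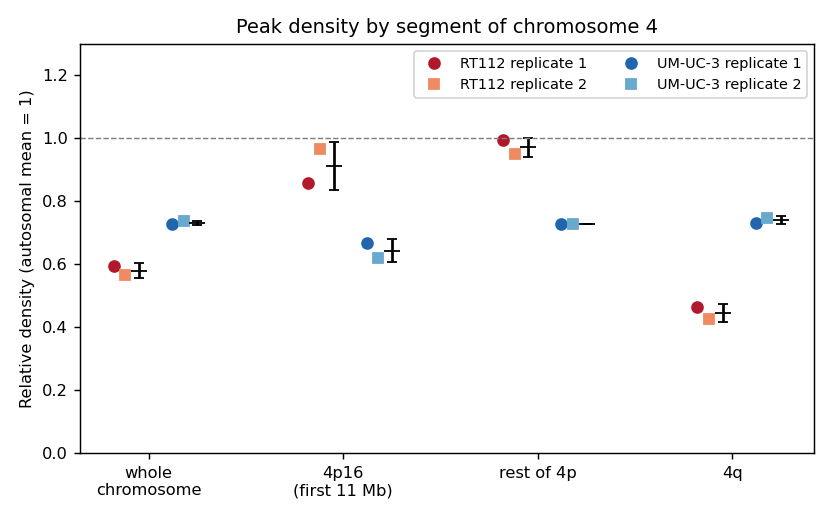
Relative density of PAI-1 peaks (vertical axis, autosomal mean of the library = 1) on chromosome 4, in the first 11 Mb (4p16), in the rest of 4p and on 4q. Colored symbols are the 4 libraries and black bars show the mean and SD of 2 libraries; RT112 lies above UM-UC-3 in the 4p segments and below it on 4q.

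Among the 34 arms of the 17 autosomes with sequence of at least 5 Mb on both sides of the centromere, 4q had the lowest relative density in both RT112 libraries. In UM-UC-3, 2 arms were lower than 4q in replicate 1 and 3 in replicate 2, with 4p among them in both. Only 1 arm was lower than 4p in each UM-UC-3 library, against 12 in each RT112 library. The ratio of the short to the long arm was higher for chromosome 4 than for any of the other chromosomes in both RT112 libraries, where the next highest was 1.44 and 1.61. By the size of the imbalance in either direction it came after chromosomes 8 and 19, whose long arms were denser, with log2 ratios of -1.20 and -1.29 and of -1.12 and -1.28. The short arm of chromosome 19, at 0.468 and 0.441, was nearly as sparse as 4q. In UM-UC-3 the ratio of the short to the long arm of chromosome 4 was 0.977 and 0.940. There 10 chromosomes had a higher ratio in each library. On the log2 scale the ratio changed from a mean of 1.11 ± 0.079 in RT112 to -0.06 ± 0.040 in UM-UC-3 (SD, n = 2 each). This change of -1.17 was the largest of the 17 chromosomes, the next being 0.72 on chromosome 19.

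**Figure D2:**
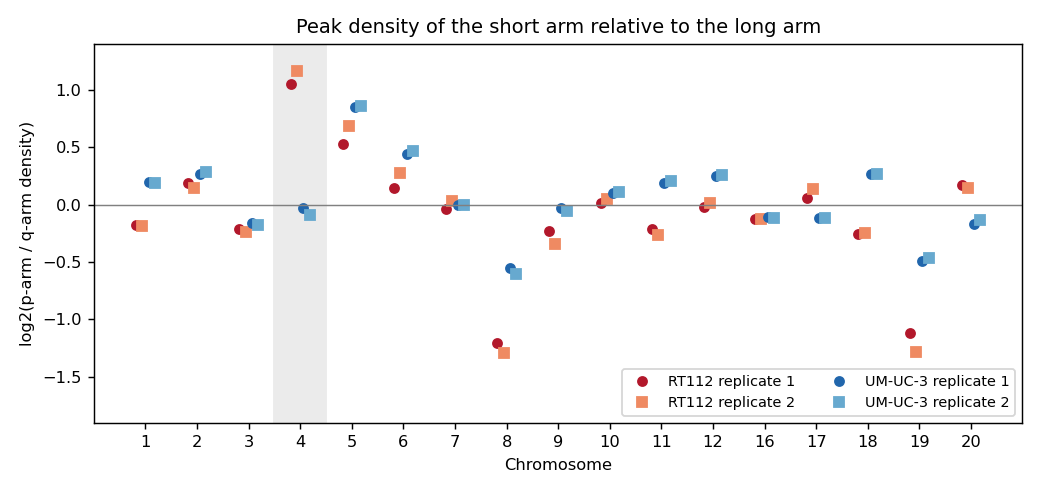
log2 of the relative density of the short arm over that of the long arm (vertical axis) for 17 autosomes (horizontal axis), with 1 symbol per library. On chromosome 4, shaded, the RT112 libraries lie at 1.05 and 1.16 and the UM-UC-3 libraries at -0.03 and -0.09.

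Along the chromosome, the density of RT112 fell across the centromere. In the last 5 Mb of 4p the relative density was 0.948 and 0.861 in RT112. It was 0.617 and 0.598 in the first 5 Mb of 4q and 0.467 and 0.441 in the second 5 Mb. In UM-UC-3 the same windows gave 0.622 and 0.627, then 0.774 and 0.766, then 0.735 and 0.764, so that there the density did not fall. In windows of 10 Mb, those starting at 60 Mb and at 130 Mb had the lowest means of RT112, with 0.344 and 0.347 at 60 Mb and 0.353 and 0.347 at 130 Mb. The window starting at 180 Mb was the fullest of 4q in RT112, at 0.615 and 0.572. UM-UC-3 stayed between 0.660 and 0.858 in all the windows from 50 Mb on.

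**Figure D3:**
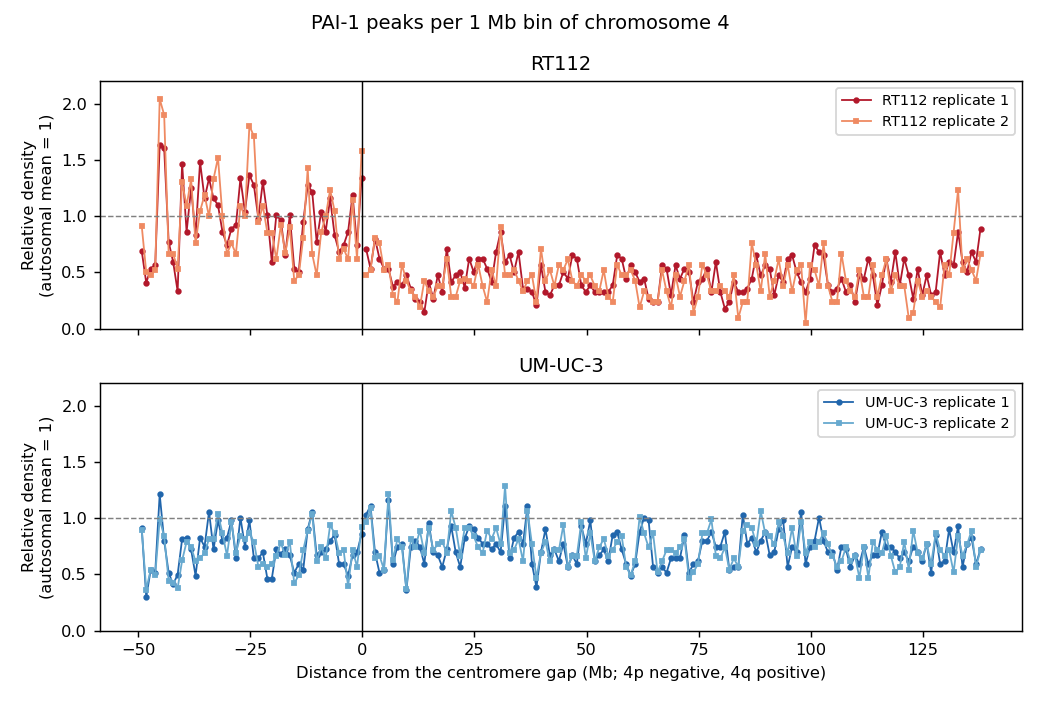
Relative density of PAI-1 peaks (vertical axis, autosomal mean = 1) in 1 Mb bins of chromosome 4 by distance from the centromere gap in Mb (4p negative, 4q positive). In RT112 the bins drop at the centromere, from a median of 0.949 and 0.902 on 4p to 0.445 and 0.427 on 4q, while in UM-UC-3 the medians are 0.697 and 0.692 on 4p and 0.722 and 0.742 on 4q.

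In bins of 1 Mb, both UM-UC-3 libraries lay above both RT112 libraries in 118 of 188 bins (62.8%), against 39% of the 2694 bins of all autosomes. On 4q this held in 115 of 138 bins (83.3%) and on 4p in 3 of 49 (6.12%). Both RT112 libraries lay above both UM-UC-3 libraries in 35 of the 188 bins (18.6%), against 33% over all autosomes. On 4p these were 30 of 49 bins (61.2%), and on 4q 4 of 138 (2.9%). These counts describe the same densities that chose the chromosome. No bin was without peaks in any library.

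Replicates of a cell line filled the bins alike, and the cell lines did so on 4p more than on 4q. Over the 188 bins, Pearson's r of relative density was 0.862 between the RT112 libraries and 0.793 between the UM-UC-3 libraries. By arm it was 0.812 and 0.835 on 4p, and 0.571 and 0.774 on 4q. Between a library of RT112 and one of UM-UC-3 it was 0.585 to 0.660 over the 49 bins of 4p and 0.057 to 0.143 over the 138 bins of 4q. Bins share their library, base composition and mappability with their neighbours, and these values are descriptions. With the GC content of the bin, the density on 4q had an r of 0.674 and 0.542 in RT112 and of 0.256 and 0.189 in UM-UC-3. On 4p all 4 values lay between -0.238 and 0.036.

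The fullest bin of RT112 was chr4:4000001-5000000 in band 4p16, with 55 peaks in replicate 1 and 43 in replicate 2, a relative density of 1.63 and 2.04. UM-UC-3 had 47 and 40 peaks there, at 1.21 and 0.989, which placed the same bin among its own 5 fullest. The next bin, chr4:5000001-6000000, held the largest ratio in favour of RT112. It had 54 and 40 peaks in RT112 (1.60 and 1.90) against 31 and 34 in UM-UC-3 (0.800 and 0.841). This bin holds STK32B and EVC2, described below with the genes. Bins on 4p at chr4:24000001-25000000 and chr4:25000001-26000000 were also among the 5 fullest of RT112, at 1.36 and 1.804 and at 1.28 and 1.71.

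The fullest bin of UM-UC-3 lay on 4q at chr4:84000001-85000000, with 43 and 52 peaks (1.11 and 1.29), against 20 and 10 in RT112 (0.593 and 0.475). The largest ratio in favour of UM-UC-3 was at chr4:175000001-176000000. It had 9 and 3 peaks in RT112 against 29 and 36 in UM-UC-3, a log2 ratio of mean relative densities of 2.00. All 5 bins with the largest such ratio lay on 4q, and their GC content was 34.6% to 37.5%. In one of them, chr4:151000001-152000000, which holds LRBA, a gene of immune cell signaling, RT112 replicate 2 had 1 peak and RT112 replicate 1 had 11, so the replicates themselves differed widely.

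The 4p16 segment, taken as the first 11 Mb, differed between the lines about as much as the rest of 4p. It held 315 and 221 peaks in RT112 against 282 and 272 in UM-UC-3. Its relative density was 0.860 and 0.966 in RT112 against 0.669 and 0.619 in UM-UC-3, and the means differed by 0.269 in favour of RT112. The rest of 4p differed by 0.244, at 0.994 and 0.951 in RT112 against 0.729 and 0.728 in UM-UC-3. Within the segment the bins were uneven in both cell lines, from 0.333 to 1.63 in RT112 replicate 1 and from 0.300 to 1.21 in UM-UC-3 replicate 1. RT112 was above UM-UC-3 in 8 of its 11 bins, UM-UC-3 above RT112 in 1, and 2 overlapped.

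The bin with FGFR3, chr4:1000001-2000000, was sparse in both cell lines. It held 13 and 10 peaks in RT112 (0.408 and 0.503) against 11 and 14 in UM-UC-3 (0.300 and 0.366). Its GC content was 54.6%, above the 48.8% of the segment and the 38.2% of the chromosome. None of FGFR3, TACC3, LETM1 (a mitochondrial ion transport protein) and FGFRL1 (an FGF receptor-like protein without a kinase domain) was touched by a peak, flanks of 3 kb included, in any library. These genes are 15.6 to 44.7 kb long and offer little room for a peak. Empty genes were common. Of the 761 protein-coding genes of the chromosome, 412 and 328 held a peak in the RT112 libraries, and 492 and 489 in those of UM-UC-3. NSD2, a histone H3 lysine methyltransferase in the same cluster, had 4 and 2 peaks in RT112 against 2 and 3 in UM-UC-3.

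The longest stretch free of peaks in all 4 libraries lay in the same place. It ran for 174 kb at chr4:1704965-1879091, with a GC content of 58.5%, from within SLBP, which had 1 peak in each RT112 library, over TACC3, TMEM129, FGFR3 and LETM1 and into NSD2. The next longest, of 157 kb, crossed the start of CCSER1 on 4q, at chr4:91031669-91188316, where the GC content was 36.3%. Of the 5 longest, 3 lay in 4p16 and had a GC content of 55.6% to 58.6%.

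Stretches without peaks in both RT112 libraries were long on 4q. There were 364 of at least 100 kb on 4q, and they made up 42.0% of that arm. UM-UC-3 had 127 on 4q, or 11.8% of the arm. On 4p the cell lines were alike, with 48 stretches in RT112 (13.98% of the arm) and 52 in UM-UC-3 (13.5%). Unlike the relative densities, these stretches were not scaled to the size of the lists. Over the genome the lists held 96423 and 60227 peaks in RT112 against 109287 and 114094 in UM-UC-3. The part of list size in the stretches was not tested. The longest in RT112 was 474 kb at chr4:117565028-118038831 around TRAM1L1, where UM-UC-3 had 11 and 13 peaks. The longest in UM-UC-3 was 243 kb at chr4:172321633-172564612, where RT112 had 2 peaks in each library. The second longest in UM-UC-3 was the stretch around FGFR3, of 232 kb.

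The score, taken to be a −log10 of the significance given by the peak caller, did not set the chromosome apart by its median. The median was 3.801 and 4.09 in RT112 against 3.88 and 3.85 in UM-UC-3, and it was the same on 4p, on 4q and on the other autosomes of each library. In 4p16 it was slightly higher, at 4.21 and 4.19 in the RT112 lists and 4.09 and 4.24 in those of UM-UC-3. Scores were coarse, with 155 to 249 distinct values on the chromosome and 17.96% to 21.9% of peaks exactly at the median. The median differed by -0.080 between UM-UC-3 and RT112 (exact permutation test, two-sided p = 1, n = 2 each), less than the SD of 0.202 in RT112. High scores were rarer on the chromosome as a whole than elsewhere, but not in 4p16. A score of at least 10 was reached by 7.71% and 7.03% of the peaks in RT112 and by 8.23% and 7.70% in UM-UC-3. On the other autosomes it was reached by 10.2% and 8.82% in the former and by 9.23% and 9.28% in the latter. In all 4 libraries the share was higher on 4p than on 4q, by 2.63 and 2.95 percentage points in RT112 and by 2.09 and 1.31 in UM-UC-3.

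Peaks of UM-UC-3 were found again in the other replicate more often than those of RT112. The share of peaks that overlapped a peak of the other replicate by at least 1 bp was 32.6% for the first and 55.1% for the second RT112 library. It was 75.2% and 71.2% in UM-UC-3. The means were 43.8% and 73.2%, a difference of 29.4 percentage points. Both shares of a line come from the same overlaps of 1 pair of lists. They are not independent values, so no SD or p-value is given for them. The RT112 lists are of unequal size, and 1229 peaks of the first overlapped 1231 of the second. The difference was 15.5 points with scores of at least 5.

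In RT112 this share was lower on 4q than on 4p, by 6.32 and 6.37 points. On 4q it was 29.9% and 52.3% and on 4p 36.2% and 58.7%. The other autosomes had 38.4% and 61.4%. In UM-UC-3 the arms were close to each other and to the other autosomes, with 75.0% and 73.2% on 4p, 75.3% and 70.6% on 4q, and 74.8% and 71.8% elsewhere.

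**Figure D4:**
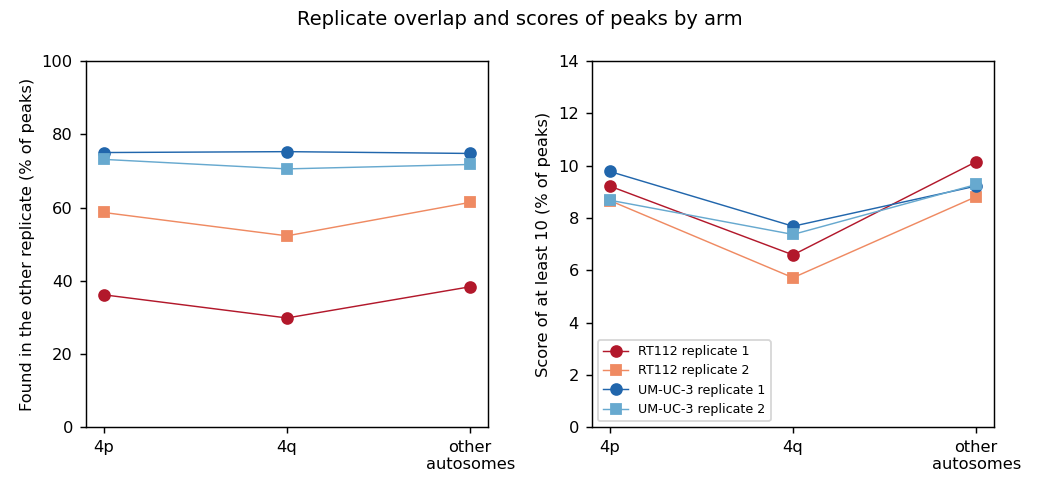
Share of peaks found in the other replicate (left, %) and share with a score of at least 10 (right, %) on 4p, on 4q and on the other autosomes, with 1 symbol and line per library. In RT112 the share found again is 29.9% and 52.3% on 4q against 36.2% and 58.7% on 4p, while in UM-UC-3 all values lie between 70.6% and 75.3%, and high scores are rarer on 4q than on 4p in every library.

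Few places on chromosome 4 had a peak in both cell lines. The share over the other autosomes is not given here, so this is not shown to be a trait of the chromosome. Peaks of all libraries merged into 11465 loci, of which 216 held peaks of both lines and 49 held peaks of all 4 libraries. Of these 49, 27 were among the 3662 loci of 4p and 22 among the 7803 of 4q. Overlap with any peak of the other line was found for 4.74% and 6.05% of the RT112 peaks on 4p and for 4.52% and 4.75% on 4q. For the UM-UC-3 peaks it was 5.47% and 6.12% on 4p and 2.29% and 2.15% on 4q. RT112 itself was sparser on 4q, at relative densities of 0.465 and 0.426 against 0.965 and 0.954 on 4p. The part of this in the lower 4q shares of UM-UC-3 was not tested.

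The locus that ranked best by mean score rank over all 4 libraries lay on 4p. Its scores were 65.7 and 45.1 in RT112, the highest of the chromosome in both libraries, and 19.9 and 16.5 in UM-UC-3. The 4p16 locus, at chr4:1500325-1500594, scored higher in UM-UC-3, at 24.8 and 23.4 against 15.7 and 14.9 in RT112. It was the only one of the 5 best such loci where both UM-UC-3 scores exceeded both of RT112. The first 11 Mb held 8 loci of all 4 libraries.

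Most of the strongest peaks of a cell line had no counterpart in the other, which held for the peaks of the chromosome at large. Over all of these, 4.61% and 5.33% of RT112 peaks and 3.11% and 3.15% of UM-UC-3 peaks overlapped one of the other line. The RT112 4p peak printed above scored 44.7 and 41.0 in RT112, was absent from the first UM-UC-3 list and scored 6.57 in the second. The third peak of RT112, at chr4:37187885-37188532 and 57.8 kb from NWD2, scored 44.7 and 35.2 and was not found in UM-UC-3. An intronic peak of RXFP1, which encodes a relaxin receptor, at chr4:159274396-159274757, scored 31.5 and 31.3 in RT112 alone. The fifth of RT112 lay at chr4:188950637-188951004, 24.4 kb from ZFP42, a gene of pluripotent cells, with scores of 44.7 and 27.6. Thus 3 of the 5 strongest RT112 peaks lay on 4p, the arm with 1605 of the 3774 peaks of replicate 1 and 992 of the 2233 of replicate 2.

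In UM-UC-3, 4 of the 5 strongest peaks lay on 4q, the arm with 3928 of 5298 and 4190 of 5595 peaks, and none of the 5 was found in RT112. The strongest, on 4q, scored 70.9 and 73.0, and the second, also on 4q, 57.3 and 50.4. The others scored 44.05 and 43.96 in an intron of LINC01091, 41.9 and 41.8 near the vitamin D binding protein gene GC, and 37.7 and 35.6 at chr4:45778656-45779107 on 4p.

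Peaks had a higher GC content in both RT112 libraries than in both of UM-UC-3. The median GC content of chromosome 4 peaks was 40.2% and 41.1% in RT112 and 38.1% in both UM-UC-3 libraries, against 37.3% in 300-base windows of the whole chromosome. The difference of -2.53 percentage points between UM-UC-3 and RT112 had a two-sided p = 0.333 (exact permutation test, n = 2 each, the smallest possible) and was larger than the SD of 0.608 in RT112. The line with the higher GC content was also the line with fewer peaks on 4q, whose windows have a median of 36.7% against 39.3% on 4p. Within 4q the medians were 39.6% and 40.2% in RT112 against 37.4% and 37.5% in UM-UC-3. Whether GC content has a part in the densities was not tested.

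By position relative to genes the peaks lay near the shares of the chromosome at large. Intergenic peaks, outside all annotated genes and 3 kb on both sides, made up 40.6% and 40.2% in RT112 against 38.3% and 38.2% in UM-UC-3, where the 300-base windows of the chromosome had 37.8%. The difference of -2.13 percentage points had a two-sided p = 0.333 (exact permutation test, n = 2 each). Promoters, within 3 kb of a transcription start site, held 12.5% and 12.5% in RT112 against 11.7% and 11.97% in UM-UC-3, where the windows had 13.6%. In 4p16 the share in promoters was 21.0%, 19.9%, 18.8% and 15.8% in the 4 libraries, in the order given above, against 28.7% of windows there.

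Simple repeats were searched on both strands in 300 bases around the middle of each peak. The run CACACACACACA lay in 1.25% to 1.57% of the peaks of a library and in 1.42% of the 625528 windows of the chromosome. Among peaks with a score of at least 10 it lay in 3.02% to 4.46%, though that rests on 7 to 16 peaks per library. The run AAAAAAAAAAAA lay in 3.63% to 4.83% of peaks against 5.43% of windows. Among peaks with a score of at least 10 it lay in 1.37% and 1.27% in RT112, which rests on 4 and 2 peaks, and in 5.50% and 5.80% in UM-UC-3, on 24 and 25. The run TATATATATATA was nearly missing, in 0 to 7 peaks per library, or at most 0.125%, against 0.807% of windows. A short read within such a run can fit many places in the genome, and mappability was not measured.

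Of the 761 protein-coding genes of the chromosome, 296 (38.9%) held a peak of both RT112 replicates, counting flanks of 3 kb, against 40.4% of the protein-coding genes of all autosomes. In UM-UC-3 456 genes (59.9%) did, against 54.2%. With scores of at least 5 the counts were 147 and 304. By arm, RT112 had a peak in both replicates in 45.3% of the 236 genes of 4p and in 36% of the 525 genes of 4q. In UM-UC-3 the order was opposite, with 55.1% on 4p and 62.1% on 4q. Long genes hold more peaks by their length alone, so genes of at least 100 kb are compared below by relative density, the peaks per Mb of the gene and its flanks over the autosomal mean of the library.

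The median relative density of the 63 such genes of 4p was 0.853 and 0.808 in RT112 against 0.689 and 0.719 in UM-UC-3. For the 152 such genes of 4q it was 0.399 and 0.376 in RT112 against 0.713 and 0.727 in UM-UC-3. On 4q, 13 and 37 of them held no peak in RT112 replicates 1 and 2, against 0 and 1 in UM-UC-3. Unlike the relative densities, these counts are not scaled to the number of peaks. On 4q that was 2169 and 1241 in RT112 against 3928 and 4190 in UM-UC-3. The share of empty long genes over all autosomes is not given here.

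The gene with most peaks in RT112 was KCNIP4 on 4p, which spans 1220 kb and encodes a protein that interacts with potassium channels. It had 38 and 18 peaks in RT112 against 37 and 38 in UM-UC-3. Its relative density of 0.919 and 0.697 in RT112 against 0.778 and 0.766 in UM-UC-3 did not separate the lines. A kinase, a nuclear cofactor and an adaptor gene of 4p did so in favour of RT112.

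The kinase gene STK32B had 25 and 16 peaks in RT112 against 17 and 16 in UM-UC-3, a relative density of 1.63 and 1.67 against 0.963 and 0.868. LDB2, a partner of LIM-domain proteins, had 22 and 13 peaks against 13 and 13, or 1.62 and 1.53 against 0.832 and 0.797. APBB2, an adaptor that binds the amyloid precursor protein, had 21 and 14 against 10 and 12, or 1.51 and 1.61 against 0.625 and 0.719. These genes were named for their many RT112 peaks, so that their order is a description only. Of all 63 genes of 4p of at least 100 kb, RT112 was above in both libraries in 26 (41.3%) and UM-UC-3 in 21 (33.3%), against 29.9% and 34.2% of the 3506 such genes of all autosomes. Of the 152 of 4q, RT112 was above in 14 (9.21%) and UM-UC-3 in 99 (65.1%).

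Genes of 4q were among those with most peaks in UM-UC-3. INPP4B, a phosphoinositide phosphatase, had 23 and 32 peaks in UM-UC-3 and 11 and 3 in RT112, or 0.714 and 0.953 against 0.393 and 0.172. GALNTL6, of the glycosyltransferase family, had 31 and 33 in UM-UC-3 and 21 and 10 in RT112, or 0.647 and 0.660 against 0.504 and 0.384. Both genes were higher in both UM-UC-3 libraries, as were most bins of that arm. They were named for their many UM-UC-3 peaks, so that their order is a description only. GALNTL6 was also among the 6 genes with most peaks in RT112. The same count would also name ENSG00000282278 and ENSG00000285713, long gene models without a symbol in the annotation, whose peaks are shared with the genes they run through.

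**Figure D5:**
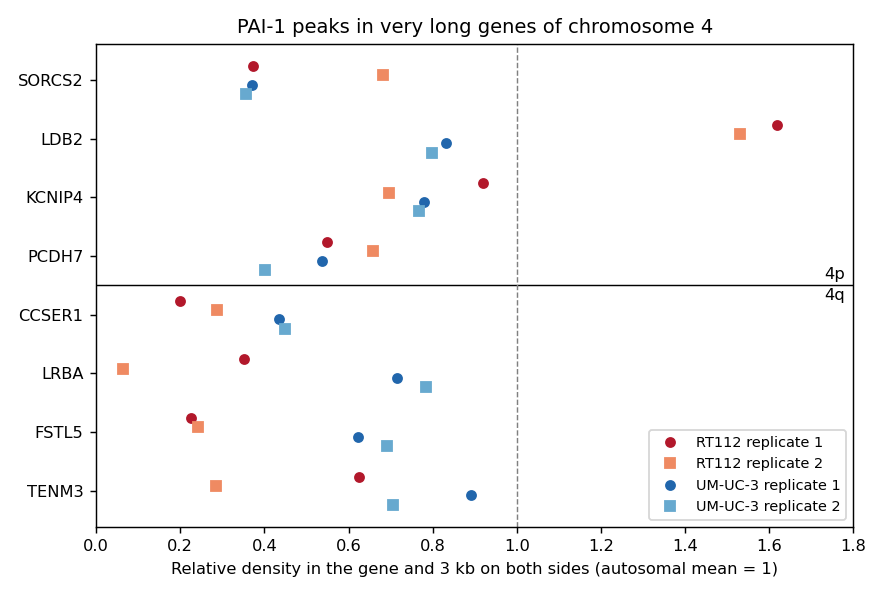
Relative density of PAI-1 peaks (horizontal axis, autosomal mean = 1) in 8 very long genes, those of 4p above the line and those of 4q below it, with 1 symbol per library. The 4 genes of 4q lie higher in both UM-UC-3 libraries than in both RT112 libraries, while of the 4 genes of 4p, 3 lie higher in RT112 and KCNIP4 overlaps. The genes were picked by hand for their length, and over all 63 long genes of 4p RT112 was above in 26 and UM-UC-3 in 21.

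Among genes of at least 100 kb, the 3 with most peaks per length over the 4 libraries all lay on 4p. The order is by raw peaks per 100 kb, and by the mean of relative densities CRMP1, also of 4p, would stand in place of TBC1D1. EVC2, which acts at the base of the primary cilium, had 12 and 8 peaks in RT112 against 6 and 8 in UM-UC-3, or 2.06 and 2.198 against 0.896 and 1.14. CCDC149 had 10 and 8 against 7 and 8, or 1.62 and 2.08 against 0.988 and 1.08. TBC1D1, a regulator of glucose transporter traffic, had 12 and 7 against 12 and 15, and its relative density of 1.401 and 1.31 against 1.22 and 1.46 did not separate the lines. The 3 with fewest were on 4q. VEGFC, a growth factor of lymphatic vessels, had 1 peak in replicate 1 of each line and none in the others, and TET2, a methylcytosine dioxygenase, had 1 in every library. EPHA5, an ephrin receptor, had 1 and 2 peaks in RT112 against 4 and 6 in UM-UC-3.

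Among 9 further genes of 4p, 6 had a peak in both replicates of RT112 and 6 in both of UM-UC-3. The share over all genes of 4p was 45.3% and 55.1%, and these 9 are longer, with a median of 121 kb against 44.5 kb. Genes fuller in UM-UC-3 were common on 4p, as counted above, and SLIT2 and HTT were among them. SLIT2, a secreted guidance ligand, had 5 and 4 peaks in RT112 against 15 and 17 in UM-UC-3, or 0.396 and 0.507 against 1.03 and 1.12. HTT, which encodes huntingtin, had 6 and 1 against 10 and 10, or 0.853 and 0.228 against 1.24 and 1.19. RBPJ, the DNA-binding partner of Notch receptors, was fuller in RT112, at 11 and 4 peaks in RT112 and 2 in each UM-UC-3 library, or 1.17 and 0.684 against 0.186 and 0.178. WFS1 and MSX1, which are only 33.4 and 4.27 kb long, had no peak in any library. CD38, PROM1 and PPARGC1A had 2 to 7 peaks in each library.

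The receptor kinases of 4q held 0 to 6 peaks per library. PDGFRA, the receptor for platelet-derived growth factor, had 1 peak in each library except the second of UM-UC-3, which had 0, and KIT, the stem cell factor receptor, had 1, 1, 1 and 2. KDR, the main VEGF receptor of endothelium, had none in RT112 against 1 and 2 in UM-UC-3. The chemokine and EGF receptor ligand genes of 4q, most of them small, mostly had none. Of 9 such genes 1, CXCL1, had a peak in both RT112 replicates, and CXCL3 and EGF did in both of UM-UC-3. CXCL8, CXCL2, CXCL5 and AREG were empty in all 4 libraries, and with a median length of 3.20 kb these genes offer little room for a peak.

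Of 6 genes of tumor suppression and cell death on 4q, 3 had a peak in both RT112 replicates and 4 in both of UM-UC-3. Over all genes of 4q the share was 36% and 62.1%, at a median length of 49.2 kb against 136 kb in the list. FAT4, a giant cadherin, had 1 and 0 peaks in RT112 against 5 and 4 in UM-UC-3. FBXW7, a subunit of a ubiquitin ligase, had 7 and 1 against 5 and 4, so that its RT112 replicates differed more than the lines. Of 5 transcription factor genes of 4q, NFKB1 had 4 and 2 peaks in RT112 against 6 and 7 in UM-UC-3, or 0.973 and 0.778 against 1.27 and 1.42. LEF1, which acts with beta-catenin, had 1 and 0 against 3 and 4. HAND2 had none, and SMAD1 and IRF2 had 1 to 3 in each library.

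The depth of single libraries could not be judged, because the lists carry no read counts. The counting error of the peak numbers was not quantified, and its part in the correlations between bins was not tested. The copy number of the arms was not measured here.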

How the data were processed

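According to the labels and the methods of the study, the authors sequenced 100 bp paired reads, mapped them to hg19 with Bowtie 1.1.1 at default parameters, removed duplicates with Picard and called peaks with MACS2 2.1.0.20140616. The submitters' processing notes also name FastQC and Trimmomatic. Each deposited list gives an interval, a name and a score, taken to be on the −log10 scale of the peak caller; whether p-value or q-value, at which threshold and with or without the input is not given in the sources used here. The lists give no read counts and the methods only an average over samples, so the depth of single libraries is unknown.

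Groups and replicate numbers came from the labels. Lines of a list with the same interval were counted once, which removed 1, 2, 3 and 8 lines of chromosome 4. A peak was placed by its midpoint, and intervals are counted from 1 on GRCh37. The arms end at the centromere gap of that assembly (chr4:49660118-52660117), and 4p16 was taken as the first 11 Mb. Density is peaks per Mb that is not N, over the pooled autosomal density of the library. Bins with under 50% of such bases were left out. Gene models were those of GENCODE 44 mapped to GRCh37, with 3 kb added on both sides. Loci are intervals merged over the libraries where they overlap by at least 1 bp. GC content, the intergenic share and the median score were compared between the lines by a two-sided exact permutation test over 2 against 2 libraries. Its smallest p is 0.333. Python 3.11.15, numpy 2.4.6, pandas 2.3.3, scipy 1.17.1 and matplotlib 3.10.9 were used. Density and overlap steps were tested on simulated data.

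The genes named were, for each line, the 6 with most peaks, the 3 with most and the 3 with fewest peaks per 100 kb among genes of at least 100 kb, and lists of 47 genes of the chromosome. The peaks named were those of the 5 best mean score ranks per line, and of the 5 best in all 4 libraries. Bins and stretches without peaks followed like rules. Some items that these rules named are not reported here. The chromosome, the lists and these rules were chosen with earlier results of these data known. Alternatives covered duplicate lines, assembly gaps, score limits, replicated peaks, the autosomal reference, bin size, overlap and single libraries.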

Additional observations from a re-analysis of the deposited data

Results flagged for a closer look

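The log2 ratio of the 4p to the 4q density of chromosome 4 drew attention because both libraries of one cell line moved one way and both of the other moved the opposite way. In RT112 it was 1.05 and 1.16 (replicates 1 and 2) and the UM-UC-3 values were -0.0329 and -0.0897. The difference between the cell lines was not tested, since the chromosome was chosen for its densities. The negative sign in UM-UC-3 rests on small values: with scores of at least 5 the UM-UC-3 ratios were 0.07 and -0.01, and with the top 25% of scores 0.11 and 0.03. Those of RT112 were 1.37 and 1.34, and 1.305 and 1.398.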

How the results depend on the processing

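Every alternative kept the direction of the difference between the lines (UM-UC-3 minus RT112) in relative density on chromosome 4, 4p, 4q and 4p16, with changes in size. On the whole chromosome it was 0.152, and 0.192 with scores of at least 5, 0.187 with the top 25% of scores and 0.223 with peaks found in the other replicate. On 4p it was -0.250, and -0.266 over the full length with assembly gaps, -0.209, -0.195 and -0.197 under those 3 choices of peaks. On 4q it was 0.295, and 0.335, 0.323 and 0.373. On 4p16 it was -0.269, -0.362 with scores of at least 5 and -0.349 with peaks found in the other replicate. Leaving out each library in turn gave 0.136 to 0.168 on the chromosome, -0.256 to -0.243 on 4p, 0.276 to 0.315 on 4q and -0.321 to -0.216 on 4p16.

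The difference in median score, -0.080, reversed to 0.252 with peaks found in the other replicate and ranged from -0.222 to 0.063 on leaving out each library, turning positive without RT112 replicate 2. The number of genes with a peak in both RT112 replicates fell from 296 to 147 with scores of at least 5, which leave fewer peaks, and that of UM-UC-3 from 456 to 304. The difference in replicate overlap was 15.5 points with that limit, against 29.4. The cause of the other changes was not tested. Other results kept their direction, GC content at -2.96 to -2.10 points and the intergenic share at -2.30 to -1.95 on leaving out each library. Leaving out libraries for the bin counts, and the replicate block for the overlap, were chosen after seeing the data. Without each library, UM-UC-3 was above in 66.0% to 70.7% of bins and RT112 in 22.3% to 24.5%. With all libraries the shares were 62.8% and 18.6%. Leaving out a library makes the rule easier to meet, so neither share can fall and the rise is built in. The autosomal share under the easier rule is not given here.

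The replicate numbers share only a number: the deviations of replicate 1 from the mean of its line had an r of 0.017 between the lines over 188 bins. With the replicate block, the difference within each number averaged 0.152 on the chromosome and 29.4 points for the overlap, as without the block, and the smallest paired p is 0.5. The depth of single libraries is unknown, and its part in the counts was not tested.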
